A study of Mus musculus with 13 samples.

Results

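Transcripts of 8 genes of the salivary duct were followed through 13 RNA sequencing libraries of the mouse submandibular gland, a major salivary gland. The genes are the 3 subunits of the epithelial sodium channel (Scnn1a, Scnn1b and Scnn1g), the chloride and bicarbonate channel Cftr, and 4 genes that mark ionocytes and related acid- or base-secreting cells (Ascl3, Foxi1, Atp6v1b1 and Slc26a4). They were chosen by name, though with earlier results of these data known, and all 8 were among the 48709 genes of the count table. Of these, 7 were expressed well enough to be tested, among 14727 genes tested in all, and Slc26a4 was not.

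The 5 PreIR-NTN libraries came from irradiated glands that had received Cere-120 (AAV2-NRTN), an adeno-associated virus vector carrying neurturin, a growth factor for parasympathetic nerves. The 5 PreIR-GFP libraries came from irradiated glands given AAV2-GFP, the same type of vector carrying green fluorescent protein. The count table has a row for the EGFP transgene, and it held 0 reads over all 13 libraries, those of PreIR-GFP included. The 3 NonIR libraries came from glands that were not irradiated. Both vectors were injected 10 days before irradiation, and all glands were taken at day 300 after treatment from mice of strain CH3 that were 1 year old. No source used here states if a vector was also injected in NonIR mice, so irradiation and vector cannot be told apart in either comparison with NonIR. The labels do not tie the libraries to separate animals, and the p-values therefore measure the spread between these libraries, which may be technical. In whole glands, fewer cells of a type and less RNA per cell cannot be told apart.

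Salivary ducts take sodium and chloride back from the fluid that acini secrete, so that the saliva delivered to the mouth is dilute. The sodium channel does this at the apical membrane as an assembly of alpha, beta and gamma subunits, encoded by Scnn1a, Scnn1b and Scnn1g, and CFTR provides a path for the accompanying chloride and for bicarbonate. Ionocytes are rare epithelial cells that carry vacuolar proton pumps and anion channels or exchangers, and the forkhead factor Foxi1 is the main transcription factor that specifies them in kidney, inner ear, epididymis and airway.

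Each library held between 9724301 and 16771003 reads in genes. The 10 most abundant genes took between 29.7% of the reads (PreIR-GFP 1) and 55.5% (PreIR-GFP 3), and the TMM factors that correct for such differences in composition ran between 0.767 (PreIR-GFP 3) and 1.42 (PreIR-GFP 1). Of 9 genes taken to define the submandibular label, 8 were tested and the symbol Muc10 was not in the table. The summed level of the 8 was at least 78760 CPM in every library. Levels given as CPM are counts scaled to a common library size with the TMM factors. For TPM, counts are divided by the joined length of all annotated exons of a gene, and each library is then rescaled to the same total. TMM factors do not enter TPM. Only TPM compares one gene with another.

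Scnn1b was the most abundant of the 8 genes per length, at 79.6 ± 23.5 TPM (SD, n = 13 libraries). Scnn1g averaged 31.6 ± 8.01 TPM and lay below Scnn1b in 13 of 13 libraries. Ascl3 averaged 31.1 ± 10.4 TPM and Foxi1 25.1 ± 11.1 TPM. With all libraries pooled, Scnn1g was above Ascl3 in 7 of 13 and Ascl3 above Foxi1 in 7 of 13. The order of Ascl3 and Foxi1 differed between sets of libraries, as given below. Atp6v1b1 followed at 10.2 ± 4.22 TPM, below Foxi1 in 13 of 13 libraries. Scnn1a averaged 7.26 ± 1.86 TPM, below Atp6v1b1 in 11 of 13, and Cftr averaged 5.37 ± 1.74 TPM, below Scnn1a in 12 of 13. On this scale the alpha subunit gene was therefore the lowest of the 3 channel subunits. Over the 13 libraries the median TPM ratio was 10.8 for Scnn1b to Scnn1a and 4.44 for Scnn1g to Scnn1a. These ratios depend on the exon lengths used and are not counts of transcripts. For Scnn1b they also carry the limit from the overlapping gene Cog7, given below.

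**Figure D1:**
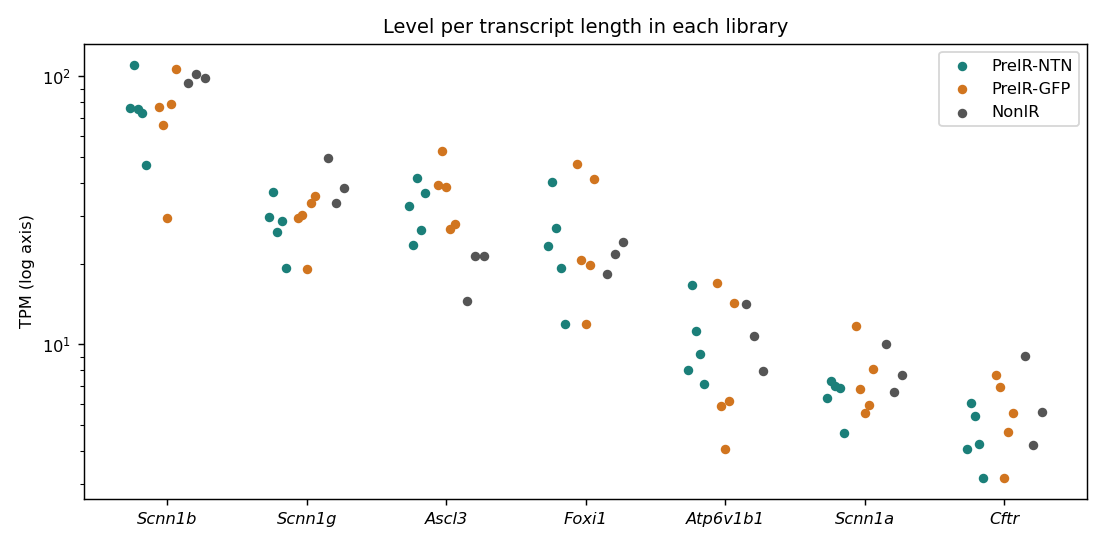
Level per exon length (TPM, log axis) of the 7 tested genes in each library, with PreIR-NTN left of PreIR-GFP and NonIR on the right for each gene. Scnn1b lies highest, Cftr and Scnn1a lowest, and the Ascl3 dots of NonIR (14.5 to 21.4 TPM) lie below all PreIR-NTN and PreIR-GFP dots (23.4 to 52.6 TPM).

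None of the 7 tested genes passed the adjusted threshold of 0.05 in any of the 3 comparisons (edgeR quasi-likelihood test with Benjamini-Hochberg adjustment over all 14727 genes). The same count of 0 was given by DESeq2, by limma-voom and by limma-trend on the authors' normalised table. Few genes of any kind passed. For PreIR-GFP against NonIR 0.034% of all genes did, for PreIR-NTN against PreIR-GFP 0.0204%, and for PreIR-NTN against NonIR 0.0204%. At an unadjusted p under 0.05, edgeR gave 3 of the 7 genes for PreIR-GFP against NonIR (Scnn1b, Ascl3 and Atp6v1b1), where 8.78% of all genes lay under it. It gave 1 for PreIR-NTN against PreIR-GFP (Atp6v1b1; 6.08% of all genes) and 1 for PreIR-NTN against NonIR (Scnn1g; 7.97% of all genes). No gene of the 7 had CPM values without overlap between the groups, against 5.14%, 1.11% and 6.52% of all genes in those comparisons. The comparisons share libraries and are not independent of each other. In each comparison 2 of the 7 fitted log2 fold changes were above 0 and 5 below. Their medians were -0.22 for PreIR-GFP against NonIR, -0.03 for PreIR-NTN against PreIR-GFP and -0.29 for PreIR-NTN against NonIR, beside medians of 0.02, -0.01 and 0.00 over all genes.

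**Figure D2:**
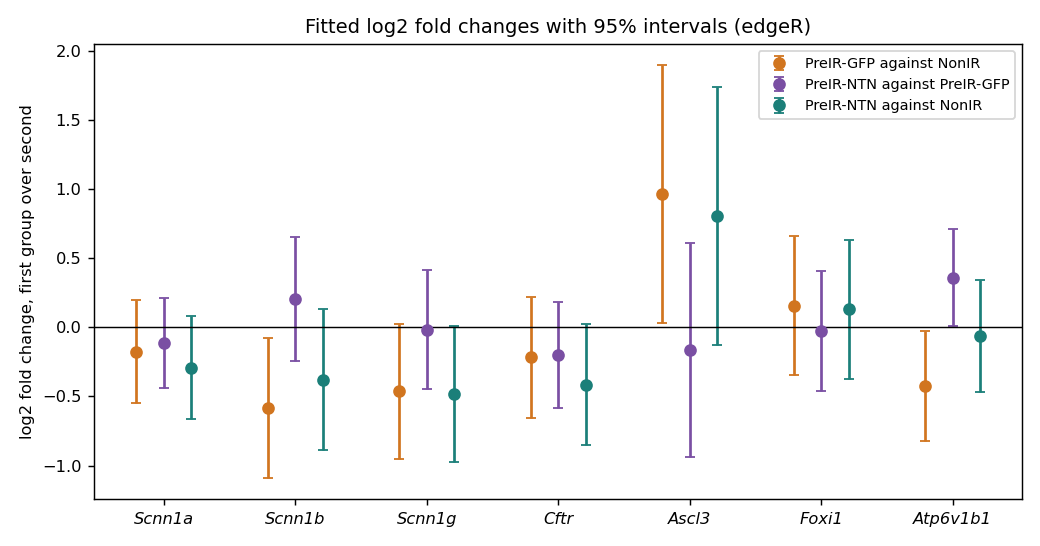
Fitted log2 fold change of each tested gene (edgeR), first named group over second, with 95% intervals from its SE and 10 residual degrees of freedom, for the 3 comparisons. The edgeR test adds prior degrees of freedom (median 5.645 over genes), so the intervals are not those of the test. That of Scnn1g for PreIR-NTN against NonIR (-0.97 to 0.01) includes 0 although its unadjusted edgeR p was under 0.05. The intervals that leave out 0 are those of Scnn1b, Ascl3 and Atp6v1b1 for PreIR-GFP against NonIR and that of Atp6v1b1 for PreIR-NTN against PreIR-GFP, and none of these passed the adjusted threshold.

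Scnn1b and Scnn1g, which encode the beta and gamma subunits, are neighbours on mouse chromosome 7 in GRCm38. Scnn1g lies at chr7:121734479-121768475 and Scnn1b at chr7:121865038-121918514, both on the plus strand, 96562 bases apart. The promoter windows of both genes are shown, from 250 bases before to 50 bases after the start (RefSeq, GRCm38.p6, chr7:121864788-121865087 for Scnn1b and chr7:121734229-121734528 for Scnn1g, 5′ to 3′ on the plus strand). Any relation of their letters to the levels was not tested. Capitals mark the GC box letters GGGCGG on either strand, which 35.7% of 32851 promoters of the same length hold.
Scnn1b: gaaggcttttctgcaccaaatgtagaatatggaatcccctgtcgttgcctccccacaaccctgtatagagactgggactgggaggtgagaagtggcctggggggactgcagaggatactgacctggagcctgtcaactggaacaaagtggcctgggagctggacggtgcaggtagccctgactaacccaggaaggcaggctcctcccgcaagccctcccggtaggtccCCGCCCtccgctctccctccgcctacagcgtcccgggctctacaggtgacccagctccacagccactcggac
Scnn1g: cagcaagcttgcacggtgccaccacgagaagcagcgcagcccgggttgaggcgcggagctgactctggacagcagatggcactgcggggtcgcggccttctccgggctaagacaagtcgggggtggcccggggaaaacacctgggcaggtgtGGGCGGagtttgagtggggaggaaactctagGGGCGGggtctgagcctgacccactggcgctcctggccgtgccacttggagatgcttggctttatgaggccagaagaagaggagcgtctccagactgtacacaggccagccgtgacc
Scnn1b has 1 GC box and Scnn1g has 2, in windows of 61.7% and 64.7% GC, against a median of 52.7% over all promoters. Neither window holds the steroid receptor motif AGAACA (19.0% of promoters, either strand), a description of these letters only. Scnn1a (ENSMUSG00000030340, chr6:125320659-125344943, plus strand), the alpha subunit gene, lies on another chromosome.

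Scnn1b (ENSMUSG00000030873) was at 127, 105, 88.5, 104 and 76.5 CPM in PreIR-NTN libraries 1 to 5. PreIR-GFP libraries 1 to 5 held 57.8, 89.5, 61.6, 125 and 101 CPM, and NonIR libraries 1 to 3 held 106, 140.5 and 145 CPM. The lowest values were those of PreIR-GFP 1 and PreIR-GFP 3, the highest those of NonIR 2 and NonIR 3, and the groups overlapped through NonIR 1. Mean levels were 100.2 ± 19.0 CPM in PreIR-NTN, 86.9 ± 27.9 CPM in PreIR-GFP (SD, n = 5 each) and 130.3 ± 21.5 CPM in NonIR (SD, n = 3). The log2 fold change was -0.58 for PreIR-GFP against NonIR (SE 0.23, edgeR adjusted p = 0.483), -0.38 for PreIR-NTN against NonIR (SE 0.23, adjusted p = 0.724) and 0.21 for PreIR-NTN against PreIR-GFP (SE 0.20, adjusted p = 0.960). Scnn1b shares 39152 bases with Cog7 on the opposite strand, and the strand setting of the counting is not stated, so reads from the stretch shared by Scnn1b and Cog7 cannot be told apart.

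Scnn1g (ENSMUSG00000000216) was, like Scnn1b, lower on average in both irradiated groups than in NonIR. It was at 56.2, 39.9, 35.1, 46.8 and 35.9 CPM in PreIR-NTN libraries 1 to 5, at 25.2, 46.9, 45.3, 60.8 and 38.3 CPM in PreIR-GFP libraries 1 to 5, and at 62.7, 52.7 and 63.7 CPM in NonIR libraries 1 to 3. PreIR-GFP 1 was again lowest, and PreIR-NTN 1 and PreIR-GFP 4 lay within the range of NonIR. Means were 42.8 ± 8.82 CPM in PreIR-NTN, 43.3 ± 12.99 CPM in PreIR-GFP and 59.7 ± 6.12 CPM in NonIR. The log2 fold change against NonIR was -0.46 in PreIR-GFP (SE 0.22, edgeR adjusted p = 0.573) and -0.48 in PreIR-NTN (SE 0.22, edgeR adjusted p = 0.623). Between PreIR-NTN and PreIR-GFP it was -0.02, with a 95% interval of -0.45 to 0.41.

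Scnn1a varied least of the 3 subunits. Its levels were 16.4, 10.9, 12.9, 15.4 and 11.98 CPM in PreIR-NTN, 13.8, 14.6, 18.1, 14.8 and 11.9 CPM in PreIR-GFP, and 17.5, 14.4 and 17.7 CPM in NonIR. All 3 groups overlapped, with PreIR-GFP 3 highest and PreIR-NTN 2 lowest. Its log2 fold change was -0.18 for PreIR-GFP against NonIR (95% interval -0.55 to 0.20, edgeR adjusted p = 0.812), -0.11 for PreIR-NTN against PreIR-GFP (interval -0.44 to 0.21, adjusted p = 0.977) and -0.29 for PreIR-NTN against NonIR (interval -0.66 to 0.08, adjusted p = 0.694).

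**Figure D3:**
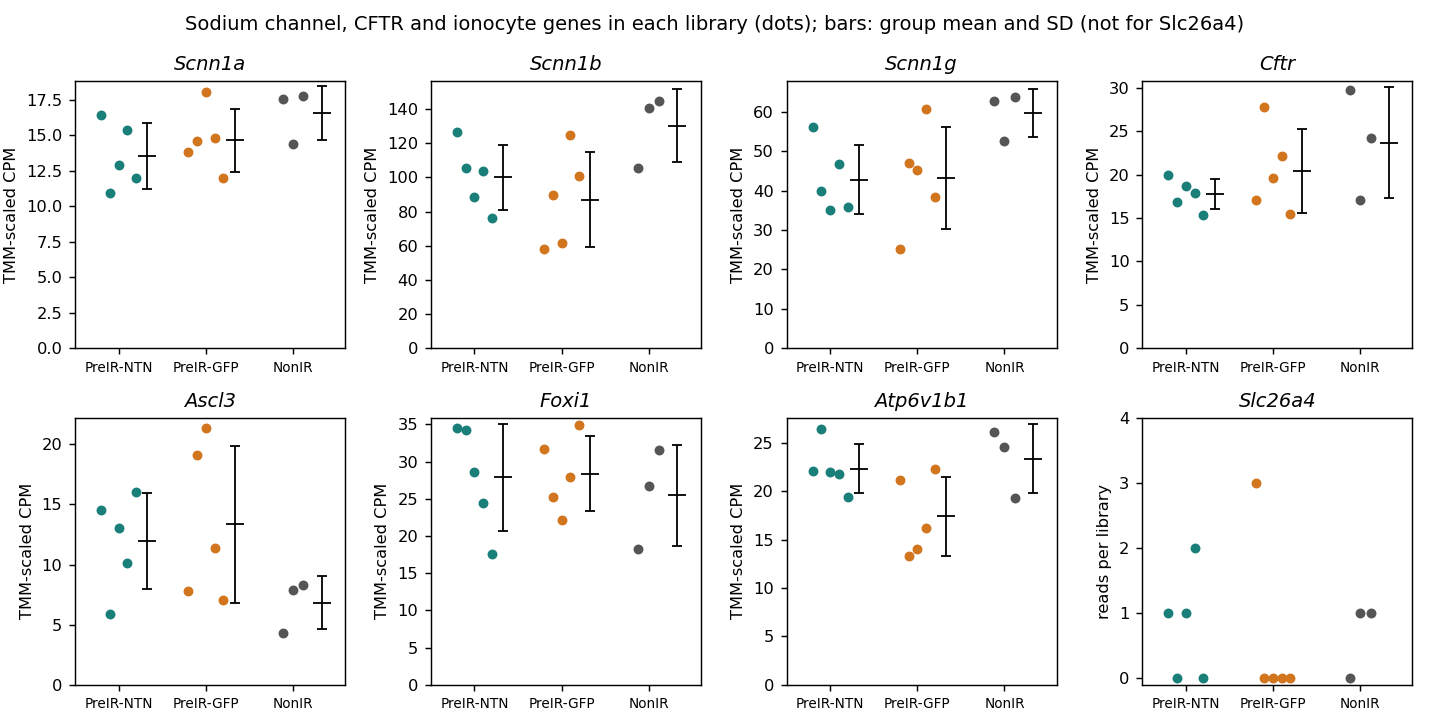
TMM-scaled CPM of the 7 tested genes, and read counts of Slc26a4, in each library (dots) of PreIR-NTN, PreIR-GFP and NonIR, with group mean and SD beside the dots for the 7 tested genes. In every panel the groups overlap; Scnn1b and Scnn1g are lowest in PreIR-GFP 1, and Ascl3 is lowest in NonIR 1.

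The balance of subunits within a library was compared as a log2 ratio of CPM, which does not depend on library scaling. Scnn1b to Scnn1a averaged 2.87 ± 0.24 in PreIR-NTN, 2.51 ± 0.59 in PreIR-GFP and 2.96 ± 0.35 in NonIR. Scnn1g to Scnn1a averaged 1.65 ± 0.17 in PreIR-NTN, 1.51 ± 0.44 in PreIR-GFP and 1.84 ± 0.02 in NonIR. The 3 NonIR libraries were nearly identical in the second ratio, with 3.58, 3.67 and 3.59 times as many CPM of Scnn1g as of Scnn1a, while the PreIR-GFP libraries ran between 1.83 and 4.11 times. None of the 9 ratio comparisons run passed (two-sided exact permutation tests, lowest Benjamini-Hochberg adjusted p = 0.455). The lowest single p was 0.0893, for Scnn1g to Scnn1a in PreIR-NTN against NonIR, where the smallest p that an exact test of 5 against 3 libraries allows is 0.0179.

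Across the 13 libraries, Scnn1b and Scnn1g varied together. Pearson's r of their log2 CPM was 0.763 (permutation test, adjusted p = 0.0233 over the 21 pairs among the 7 genes) and Spearman's rho was 0.830 (permutation adjusted p = 0.0187). Without PreIR-GFP 1 and PreIR-GFP 3, the libraries farthest from the median of Scnn1b, r was 0.770, and after removing group means it was 0.688. In the 9 libraries of higher short-gene index, defined with Ascl3, r was 0.749 and rho 0.850. Scnn1a followed Scnn1g less closely (r = 0.635, permutation adjusted p = 0.0824; rho = 0.687, adjusted p = 0.0496) and had an r of 0.155 with Scnn1b, or 0.553 without PreIR-GFP 3 and PreIR-NTN 2. Cftr followed Scnn1a (r = 0.655, permutation adjusted p = 0.0824; rho = 0.758, adjusted p = 0.0215) and Scnn1g (r = 0.639, permutation adjusted p = 0.0824; rho = 0.753, adjusted p = 0.0215). For the last 3 pairs only the rank correlation passed, and within those 9 libraries their rho lay between 0.483 and 0.583.

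**Figure D4:**
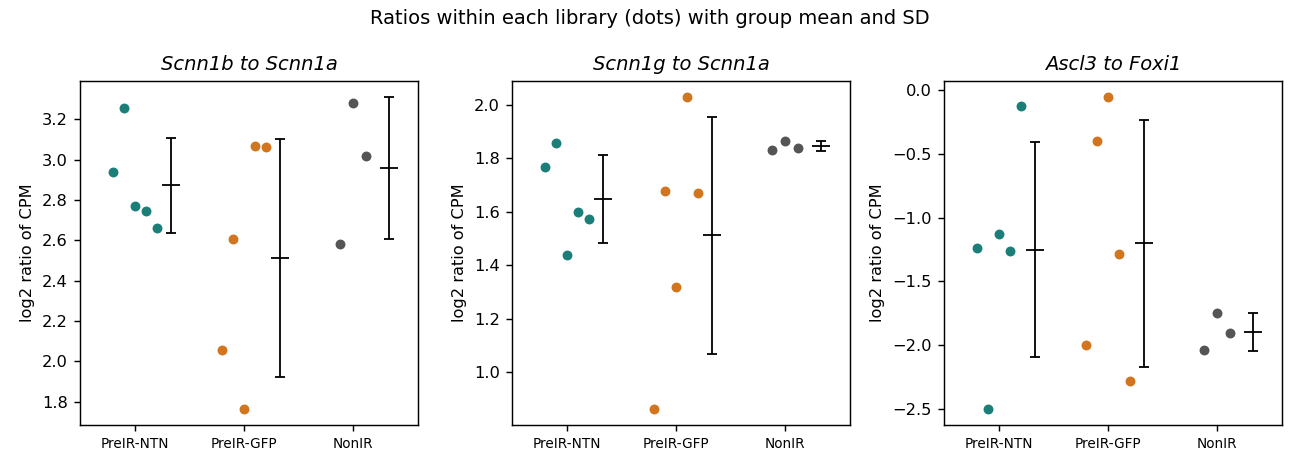
Log2 ratio of CPM within each library (dots) for Scnn1b to Scnn1a, Scnn1g to Scnn1a and Ascl3 to Foxi1, with group mean and SD. The Scnn1g to Scnn1a ratios of NonIR lie between 1.83 and 1.87 on the log2 scale, and those of PreIR-GFP between 0.86 and 2.03.

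Regulators of the sodium channel were read beside it. These are the kinase Sgk1 and the ubiquitin ligase Nedd4l that set how much channel stays at the membrane, the steroid receptors, the channel-activating proteases and the WNK kinases. Of 21 genes listed, 20 were tested and 0 passed in any comparison (edgeR). For PreIR-GFP against NonIR, PreIR-NTN against PreIR-GFP and PreIR-NTN against NonIR, 3, 3 and 2 had an unadjusted p under 0.05. Over all genes the shares were 8.78%, 6.08% and 7.97%. The median log2 fold changes of the list were 0.02, -0.01 and 0.03. Sgk1 was at 29.7 ± 6.67 CPM in PreIR-GFP, against 41.5 ± 9.15 CPM in NonIR (log2 fold change -0.48, edgeR adjusted p = 0.496), and at 30.4 ± 4.50 CPM in PreIR-NTN (-0.45 against NonIR, adjusted p = 0.595). Tsc22d3, a glucocorticoid-induced gene whose product GILZ acts on the channel, was at 28.4 ± 5.35 CPM in PreIR-GFP, against 19.8 ± 1.40 CPM in NonIR (log2 fold change 0.52, edgeR adjusted p = 0.377). In PreIR-NTN against PreIR-GFP the smallest p values were those of Oxsr1, a kinase activated by WNK kinases (3.25 ± 0.344 against 4.63 ± 0.638 CPM, log2 fold change -0.51, edgeR adjusted p = 0.620), and Wnk4 (2.27 ± 0.765 against 1.23 ± 0.539 CPM, 0.87, adjusted p = 0.743). Furin, a protease that cleaves the alpha and gamma subunits, was at 128 ± 37.1 CPM in PreIR-NTN and 207 ± 53.6 CPM in NonIR (log2 fold change -0.70, edgeR adjusted p = 0.649). In PreIR-GFP it was at 129 ± 48.4 CPM (-0.68 against NonIR, edgeR adjusted p = 0.602).

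Cftr (ENSMUSG00000041301, chr6:18170687-18322768, plus strand) was at 19.9, 16.9, 18.7, 17.9 and 15.3 CPM in PreIR-NTN, at 17.0, 27.8, 19.6, 22.1 and 15.4 CPM in PreIR-GFP, and at 29.8, 17.1 and 24.2 CPM in NonIR. The PreIR-NTN libraries lay close together, and those of PreIR-GFP and NonIR spread over nearly the same range. The log2 fold change was -0.22 for PreIR-GFP against NonIR (SE 0.20, edgeR adjusted p = 0.803), -0.20 for PreIR-NTN against PreIR-GFP (SE 0.17, adjusted p = 0.951) and -0.42 for PreIR-NTN against NonIR (SE 0.20, adjusted p = 0.630). Without NonIR 1, the highest library, the value for PreIR-GFP against NonIR was 0.00. The Cftr promoter window holds 6 GC boxes in 71.3% GC.

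Of 17 genes for partners of CFTR and duct anion transport, Cftr included, 15 were tested and 0 passed (edgeR). In the same order of comparisons 4, 2 and 1 had an unadjusted p under 0.05, beside 8.78%, 6.08% and 7.97% of all genes. The median log2 fold changes of the list were 0.01, 0.00 and 0.08. Stx1a, a syntaxin that binds CFTR, was at 1.61 ± 0.411 CPM in PreIR-GFP, against 0.795 ± 0.295 CPM in NonIR (log2 fold change 1.03, edgeR adjusted p = 0.375). In PreIR-NTN it was at 1.32 ± 0.214 CPM (0.73 against NonIR, edgeR adjusted p = 0.623). Syt11, a synaptotagmin of vesicle traffic, was at 5.32 ± 1.37 CPM in PreIR-GFP, against 2.88 ± 0.911 CPM in NonIR (0.89, edgeR adjusted p = 0.360), and at 3.23 ± 0.771 CPM in PreIR-NTN (-0.72 against PreIR-GFP, edgeR adjusted p = 0.627). Slc9a3r1, the scaffold NHERF1 that anchors CFTR, was at 16.6 ± 6.15 CPM in PreIR-NTN, against 11.6 ± 2.58 CPM in PreIR-GFP (0.52, edgeR adjusted p = 0.796).

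Among the ionocyte genes, Ascl3 and Atp6v1b1 varied in opposite directions. Ascl3 (ENSMUSG00000035951, chr7:109727465-109731726, minus strand) encodes a basic helix-loop-helix factor of duct cells in mouse salivary glands. Atp6v1b1 (ENSMUSG00000006269, chr6:83742990-83758855, plus strand) encodes the B1 subunit of the proton pump found in acid-secreting cells, and in the mouse epididymis and inner ear its expression requires Foxi1. Their promoter windows are shown as a description of letters only (RefSeq, GRCm38.p6, chr7:109731683-109731982 on the minus strand for Ascl3 and chr6:83742767-83743066 on the plus strand for Atp6v1b1). Any relation of these letters to the levels was not tested. Capitals mark TATAAA and CACGTG in Ascl3 and the forkhead core TGTTTAC in Atp6v1b1, on either strand, with overlapping matches of TATAAA joined in 1 run.
Ascl3: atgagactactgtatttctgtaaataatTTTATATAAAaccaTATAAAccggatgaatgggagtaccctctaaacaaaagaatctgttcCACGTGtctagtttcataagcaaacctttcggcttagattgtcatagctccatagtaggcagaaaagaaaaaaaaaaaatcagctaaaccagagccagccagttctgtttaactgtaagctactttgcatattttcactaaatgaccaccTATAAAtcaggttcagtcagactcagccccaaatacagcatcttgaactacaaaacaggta
Atp6v1b1: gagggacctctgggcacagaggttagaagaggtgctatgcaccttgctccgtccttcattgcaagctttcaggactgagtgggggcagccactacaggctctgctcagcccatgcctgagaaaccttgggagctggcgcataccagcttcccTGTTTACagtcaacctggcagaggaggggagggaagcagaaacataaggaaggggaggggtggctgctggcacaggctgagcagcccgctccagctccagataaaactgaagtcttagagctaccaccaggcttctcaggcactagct
TATAAA occurs in 13.6% of 32851 promoters of the same length, CACGTG in 7.15% and TGTTTAC in 3.65%, each counted on both strands. Ascl3 has a window of 36.0% GC with no GC box, and Atp6v1b1 one of 57.3% GC. Among the 7 genes with a RefSeq promoter (all but Scnn1a), TGTTTAC occurs only in Atp6v1b1 and the related letters TGTTTGC (5.07% of promoters) in none.

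Ascl3 was at 14.6, 5.92, 13.03, 10.2 and 16.0 CPM in PreIR-NTN libraries 1 to 5 and at 7.83, 19.1, 21.4, 11.4 and 7.07 CPM in PreIR-GFP libraries 1 to 5. NonIR libraries 1 to 3 held 4.31, 7.85 and 8.34 CPM. NonIR 1 was lowest of all 13, and PreIR-NTN 2, PreIR-GFP 1 and PreIR-GFP 5 lay within the range of NonIR. Means were 11.9 ± 4.00 CPM in PreIR-NTN, 13.3 ± 6.53 CPM in PreIR-GFP and 6.83 ± 2.20 CPM in NonIR. Fitted log2 fold changes of Ascl3 were 0.97 for PreIR-GFP against NonIR (SE 0.42, edgeR adjusted p = 0.538), 0.81 for PreIR-NTN against NonIR (SE 0.42, adjusted p = 0.680) and -0.16 for PreIR-NTN against PreIR-GFP (SE 0.35, adjusted p = 0.998).

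On the per-length scale the Ascl3 groups did not overlap NonIR. Ascl3 was at 32.9, 23.4, 41.7, 26.8 and 36.7 TPM in PreIR-NTN and at 39.2, 52.6, 38.5, 27.0 and 28.2 TPM in PreIR-GFP, against 14.5, 21.4 and 21.3 TPM in NonIR. Of the 7 genes, Ascl3 alone did not overlap on this scale, in both comparisons with NonIR, where 1.46% of genes did not overlap for PreIR-GFP against NonIR and 2.48% for PreIR-NTN against NonIR. Within Ascl3 the exon length is the same in every library, so CPM and TPM differ here by how each library is rescaled. Whether Ascl3 overlaps thus depends on the scaling, and no test was run on TPM.

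The libraries also differed in how well short genes were represented. A short-gene index, added after the data had been seen, took the median log2 deviation of 267 protein-coding genes of at most 1000 bases minus that of 7208 genes of at least 4000 bases. It lay between -1.13 and -0.74 in 4 libraries (PreIR-NTN 2, PreIR-GFP 1, PreIR-GFP 5 and NonIR 1) and between -0.22 and 0.84 in the other 9. Ascl3 has 700 bases of exon, the shortest of the 8 genes, and the other 7 have 2357 to 7765. Its level was 4.31 to 7.83 CPM in the 4 libraries of low index and 7.85 to 21.4 CPM in the 9 others. Within each of these 2 sets Ascl3 was lowest in NonIR. Among the 9 libraries it was at 10.2 to 16.0 CPM in PreIR-NTN (n = 4) and 11.4 to 21.4 CPM in PreIR-GFP (n = 3), against 7.85 and 8.34 CPM in NonIR. Among the 4 it was at 5.92 CPM in PreIR-NTN 2 and at 7.83 and 7.07 CPM in PreIR-GFP 1 and 5, against 4.31 CPM in NonIR 1. With so few libraries, lack of overlap within the 9 is common, at 15.8% of all genes for PreIR-NTN against NonIR and 26.6% for PreIR-GFP against NonIR. It was not particular to Ascl3. Of the 7 tested genes, 2 did not overlap within the 9 for PreIR-NTN against NonIR (Scnn1b and Ascl3). For PreIR-GFP against NonIR 3 did not (Scnn1b, Ascl3 and Atp6v1b1). With the index as a covariate, the log2 fold change of Ascl3 was 0.94 for PreIR-GFP against NonIR (edgeR adjusted p = 0.0833) and 0.67 for PreIR-NTN against NonIR (edgeR adjusted p = 0.301). Over all 13 libraries Ascl3 had an r of 0.742 with the index (permutation test, adjusted p = 0.0309 over 7 genes; rho = 0.725, adjusted p = 0.0443), and it alone of the 7 passed. This r was 0.717 without PreIR-GFP 1 and PreIR-NTN 2 and 0.873 after removing group means. Within the 9 libraries the r of Ascl3 with the index was 0.366 (permutation test, adjusted p = 0.642 over 7 genes; rho = 0.317, adjusted p = 0.867; r = 0.486 without PreIR-NTN 3 and PreIR-NTN 5).

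Atp6v1b1 was at 22.1, 26.4, 22.0, 21.8 and 19.4 CPM in PreIR-NTN libraries 1 to 5, at 21.2, 13.3, 14.1, 16.2 and 22.4 CPM in PreIR-GFP libraries 1 to 5, and at 26.1, 24.6 and 19.4 CPM in NonIR libraries 1 to 3. PreIR-GFP 2, 3 and 4 lay below all other libraries, while PreIR-GFP 1 and 5 lay within the range of the other groups. Means were 22.4 ± 2.54 CPM in PreIR-NTN, 17.4 ± 4.12 CPM in PreIR-GFP and 23.4 ± 3.56 CPM in NonIR. The log2 fold change was -0.42 for PreIR-GFP against NonIR (SE 0.18, edgeR adjusted p = 0.518), 0.36 for PreIR-NTN against PreIR-GFP (SE 0.16, adjusted p = 0.784) and -0.06 for PreIR-NTN against NonIR (SE 0.18, adjusted p = 0.957). Among the 9 libraries of higher index the 4 PreIR-NTN values lay above the 3 of PreIR-GFP. Atp6v1b1 alone of the 7 tested genes had no overlap there between these groups, beside 7.08% of all genes. Without PreIR-GFP 1 and PreIR-GFP 5, 2 of the 4 libraries of low index, the log2 fold change was -0.70 for PreIR-GFP against NonIR (edgeR adjusted p = 0.144) and 0.64 for PreIR-NTN against PreIR-GFP (edgeR adjusted p = 0.468). With the index as a covariate these values were -0.45 (edgeR adjusted p = 0.169) and 0.43 (edgeR adjusted p = 0.296).

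Ascl3 and Atp6v1b1 had the Pearson correlation of largest size among the 21 pairs over all 13 libraries. Their r was -0.791 (permutation test, adjusted p = 0.0221) and Spearman's rho -0.758 (permutation adjusted p = 0.0215). Without NonIR 1 and PreIR-GFP 3, r was -0.682, and after removing group means it was -0.896. Within the 9 libraries of higher index r was -0.689 and rho -0.567. The 4 libraries of low index are too few for a value. Scnn1b with Ascl3 (r = -0.833), Scnn1b with Scnn1g (0.749) and Scnn1b with Foxi1 (0.720) were larger in size within these 9. After removing group means, Ascl3 and Atp6v1b1 had an r of 0.873 and -0.827 with the short-gene index, and of -0.812 and 0.809 with the TMM factor, over 13 libraries. In the 4 libraries of low index Atp6v1b1 was at 21.2 to 26.4 CPM, and in the 9 others at 13.3 to 24.6 CPM, and the part of the index in this correlation was not tested.

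**Figure D5:**
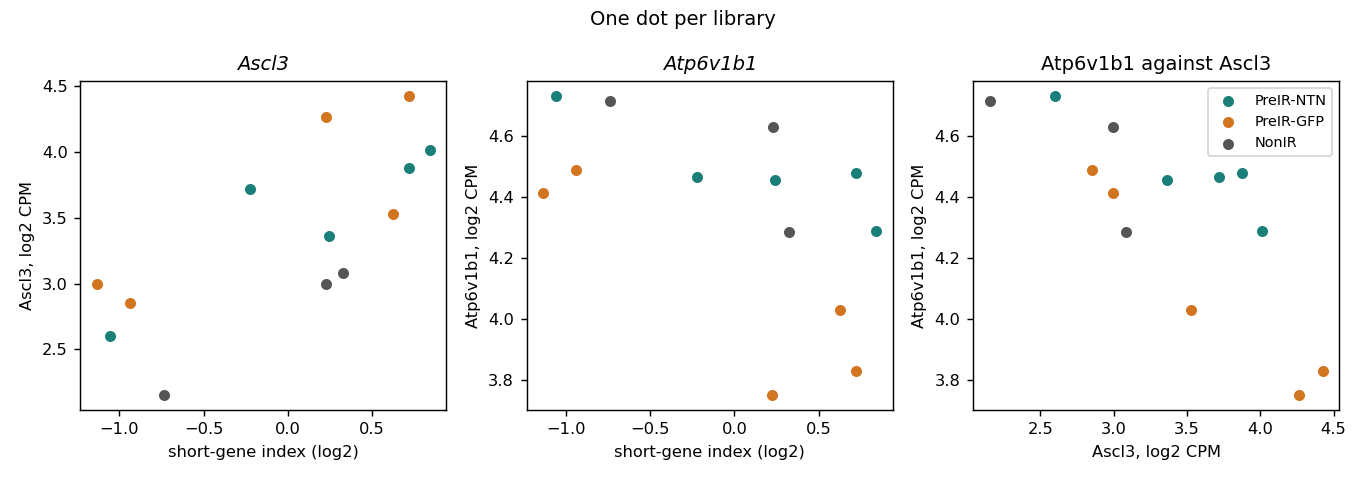
Log2 CPM of Ascl3 and of Atp6v1b1 against the short-gene index, and of Atp6v1b1 against Ascl3, with 1 dot per library. The 4 libraries with an index below -0.5 have Ascl3 at 7.83 CPM or less, and Atp6v1b1 lies lowest in the PreIR-GFP libraries where Ascl3 is highest.

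Foxi1 (ENSMUSG00000047861, chr11:34204338-34208089, minus strand), the forkhead factor of ionocytes, did not separate the groups. It was at 34.6, 34.2, 28.6, 24.5 and 17.5 CPM in PreIR-NTN, at 31.8, 25.2, 22.1, 27.98 and 34.9 CPM in PreIR-GFP, and at 18.2, 26.7 and 31.6 CPM in NonIR. The ranges of the 3 groups overlapped almost entirely. Foxi1 had a log2 fold change of 0.16 for PreIR-GFP against NonIR (95% interval -0.35 to 0.66, edgeR adjusted p = 0.899), -0.03 for PreIR-NTN against PreIR-GFP (interval -0.46 to 0.41, adjusted p = 0.998) and 0.13 for PreIR-NTN against NonIR (interval -0.37 to 0.63, adjusted p = 0.921). Foxi1 had an r of -0.18 with Ascl3 and of 0.19 with Atp6v1b1 (permutation tests, both adjusted p = 0.771). Without the farthest libraries these values were -0.570 (NonIR 1 and PreIR-GFP 3 left out) and 0.619 (NonIR 1 and PreIR-NTN 5 left out), so they depend on those libraries. The log2 ratio of Ascl3 to Foxi1 averaged -1.25 ± 0.84 in PreIR-NTN, -1.20 ± 0.97 in PreIR-GFP and -1.90 ± 0.15 in NonIR, with no difference past the threshold (two-sided exact permutation tests, adjusted p = 0.455 for both comparisons with NonIR). Per length, Ascl3 lay below Foxi1 in all NonIR libraries and all libraries of low index (TPM ratio 0.58 to 0.99). In the irradiated libraries of higher index it lay above Foxi1 (1.37 to 3.25).

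Slc26a4 (ENSMUSG00000020651, chr12:31519827-31559969, minus strand) encodes pendrin, the chloride and bicarbonate exchanger of base-secreting cells in the kidney and inner ear. It had 1, 0, 1, 2 and 0 reads in PreIR-NTN, 3, 0, 0, 0 and 0 in PreIR-GFP, and 0, 1 and 1 in NonIR. The 9 reads over all libraries have an exact Poisson 95% interval of 4.12 to 17.1, or 0.0493 unscaled CPM (0.0225 to 0.0935). A library with 0 reads allows up to 3, and differences between groups were not detectable at this depth. These bounds cover counting error alone, because PCR copies of 1 molecule are counted as separate reads.

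A wider list of ionocyte-associated genes was read beside these. Of 28 genes, the 4 above and Cftr included, 21 were tested and 0 passed in any comparison (edgeR). In the order of comparisons used above, 3, 3 and 1 had an unadjusted p under 0.05, beside 8.78%, 6.08% and 7.97% of all genes. The median log2 fold changes of the list were 0.00, -0.03 and -0.03. Besides Slc26a4, the 6 not tested were Foxi3, Gcm1, Pparg, Slc4a1, Slc4a9 and Rhcg, of which Foxi3 and Gcm1 had 0 reads. Foxi2, a relative of Foxi1, was at 5.18 ± 0.715 CPM in PreIR-NTN, 5.34 ± 1.29 CPM in PreIR-GFP and 4.56 ± 1.24 CPM in NonIR. Hepacam2 was at 43.3 ± 5.49 CPM in PreIR-NTN, against 54.7 ± 6.79 CPM in PreIR-GFP (log2 fold change -0.34, edgeR adjusted p = 0.747). Tfcp2l1, a transcription factor of salivary and kidney ducts, was at 512 ± 35.3 CPM in PreIR-NTN, against 628 ± 63.0 CPM in NonIR (-0.29, edgeR adjusted p = 0.551).

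Subunits of the vacuolar proton pump were also followed, because Atp6v1b1 encodes one of them. Of 25 genes, 24 were tested and 0 passed (edgeR), and Atp6v1e2 had 0 reads. In the order of comparisons used above, 2, 2 and 1 had an unadjusted p under 0.05, beside 8.78%, 6.08% and 7.97% of all genes. Fitted log2 fold changes were below 0 for 18 of 24 genes in PreIR-GFP against NonIR and in PreIR-NTN against NonIR, with medians of -0.08 and -0.07. In PreIR-NTN against PreIR-GFP 9 of 24 were below 0, with a median of 0.02. Over all genes the medians of these comparisons were 0.02, 0.00 and -0.01. Atp6v0a4, the a4 subunit that pairs with B1 in acid-secreting cells, had the smallest p of the list. It had 5, 11, 8, 19 and 21 reads in PreIR-NTN, 3, 4, 2, 6 and 9 reads in PreIR-GFP, and 11, 20 and 11 reads in NonIR. Its levels were 0.940 ± 0.554 CPM in PreIR-NTN, 0.316 ± 0.153 CPM in PreIR-GFP and 1.11 ± 0.503 CPM in NonIR. All 5 PreIR-GFP libraries lay below all 3 of NonIR, where 5.14% of all genes did not overlap, and the log2 fold change was -1.74 (SE 0.53, edgeR adjusted p = 0.341). For PreIR-NTN against PreIR-GFP it was 1.501 (SE 0.48, edgeR adjusted p = 0.622). Atp6v1b2, the B2 subunit found in most cells, was at 30.0 ± 3.72 CPM in PreIR-NTN, 29.4 ± 4.21 CPM in PreIR-GFP and 30.8 ± 4.89 CPM in NonIR.

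Markers of the cells around these genes were read beside them. Of 19 duct cell genes 0 passed (edgeR). In each comparison 1 had an unadjusted p under 0.05, beside 8.78%, 6.08% and 7.97% of all genes in the order used above. The summed level of the 19 was 2783 to 3634 CPM in PreIR-NTN, 2541 to 3621 CPM in PreIR-GFP and 2837 to 3543 CPM in NonIR. For PreIR-GFP against NonIR 16 of the 19 had a fitted log2 fold change below 0, with a median of -0.13. For PreIR-NTN against PreIR-GFP 6 of 19 did (median 0.09), and for PreIR-NTN against NonIR 13 of 19 (median -0.08). Over all genes these medians were 0.02, -0.01 and 0.00. Genes of a list were measured in the same libraries, so counts of signs within a list are not independent observations. The 18 genes of the granular convoluted tubule, the duct segment of rodents that stores growth factors and kallikreins, summed to 31430 to 65820 CPM in PreIR-NTN, 15860 to 71410 CPM in PreIR-GFP and 52210 to 72640 CPM in NonIR, and 0 passed. The lowest of these sums was that of PreIR-GFP 1, where Scnn1b and Scnn1g were also lowest, and the part of this segment in the values of the sodium channel genes was not tested. Its 18 genes had a median log2 fold change of -0.67 for PreIR-GFP against NonIR, 0.29 for PreIR-NTN against PreIR-GFP and -0.35 for PreIR-NTN against NonIR. The 12 immune genes summed to 186 to 385 CPM in PreIR-NTN, 403 to 1436 CPM in PreIR-GFP and 244 to 661 CPM in NonIR, with PreIR-GFP 1 highest, and 0 passed. A large part of these sums was Jchain, at a mean of 102.5 CPM in PreIR-NTN, 534.5 CPM in PreIR-GFP (maximum 1212 CPM) and 199.1 CPM in NonIR. In PreIR-NTN against PreIR-GFP all 12 immune genes had a fitted log2 fold change below 0 (median -0.57). Of the 12, 7 had an unadjusted p under 0.05 (edgeR), beside 6.08% of all genes. The median of the 12 was 0.36 for PreIR-GFP against NonIR and -0.36 for PreIR-NTN against NonIR. Acinar genes summed to 128400 to 216100 CPM in PreIR-NTN, 84060 to 159300 CPM in PreIR-GFP and 166600 to 227400 CPM in NonIR, with 0 of 18 past the threshold. These sums include Smgc, at a mean of 78660 CPM in PreIR-NTN, 39420 CPM in PreIR-GFP and 119100 CPM in NonIR. For PreIR-GFP against NonIR 11 of the 18 had a fitted log2 fold change above 0 and 7 below (median 0.12). Medians were 0.05 for PreIR-NTN against PreIR-GFP and 0.13 for PreIR-NTN against NonIR. In these 3 comparisons 6, 3 and 4 of the 18 had an unadjusted p under 0.05 (edgeR), beside 8.78%, 6.08% and 7.97% of all genes. Myoepithelial genes had 0 of 7 past the adjusted threshold. Of 9 fibroblast and adipocyte genes only Dpt, a matrix protein gene, passed, in PreIR-NTN against PreIR-GFP, where 0.0204% of all genes did. There it was lower by 1.33 on the log2 scale (edgeR adjusted p = 0.0175). In the order of comparisons used above, 0, 6 and 4 of the 9 had an unadjusted p under 0.05 (edgeR), beside 8.78%, 6.08% and 7.97% of all genes. The median log2 fold changes of these 9 were 0.18, -0.50 and -0.44. The part of these cell types in the values above was not tested.

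The genes most like each of the 7 in their log2 CPM over the 13 libraries were named by Pearson's r, as a description of libraries that share depth and composition. For Scnn1b they were Chmp6 (r = 0.957), Acp5 (0.943) and Edem2 (0.937), and for Scnn1g Man2b1 (0.945), Timm22 (0.923) and Rabgef1 (0.920). Scnn1a was most like Dxo (0.978), Vcpkmt (0.899) and Sharpin (0.889), and Cftr most like Slc35b1 (0.858), Cnnm4 (0.837) and Rpp14 (0.829). For Ascl3 they were Rpsa-ps10 (0.953), a processed pseudogene whose reads may come from its parent gene, Rnase1 (0.950) and Rpl12 (0.946), and these have 885, 992 and 3598 bases of exon. Foxi1 was most like Faap100 (0.885), Nsmf (0.877) and Zcchc14 (0.869), and Atp6v1b1 most like Gm43681 (0.883), Gdap10 (0.864) and Nabp1 (0.859). None of the 7 genes was among the nearest 3 of another.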

How the data were processed

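Gland RNA became cDNA by SMART-Seq v4 and libraries by Nextera XT, sequenced by NextSeq, per the labels' protocols. The submitters' processing notes name STAR 2.5.2a, GRCm38.p3 (also mm10), DESeq2, edgeR and limma. No source used here names the counting tool or the strand setting, and the series' design text names another instrument and other aligners. The authors deposited raw read counts per gene (48709 genes, and 24 other rows left out of library sizes) and a normalised signal table, which on testing was each library's counts times 1 constant, for the 17957 entries with at least 6 reads in 1 library. That table served 1 alternative (limma-trend on log2 of the value plus 1).

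Genes were kept by filterByExpr, libraries scaled by TMM, and edgeR 4.0.16 (R 4.3.3, quasi-likelihood, robust, 1 mean per group, two-sided, Benjamini-Hochberg over 14727 genes, threshold 0.05) fitted to all 13 libraries. Standard errors came from the fold change and its F statistic. Log2 CPM used a prior count of 2. TPM used union exon lengths of GENCODE release M21 on GRCm38. Correlations used 100000 permutations. No replicates were near duplicates (chi-square per degree of freedom 29.6 to 256 over 23 pairs). Alternatives were DESeq2 1.42.0, limma-voom (limma 3.58.1), other size factors, no filter, the 2 groups alone, a replicate block and leaving out each library. The fit was tested on simulated data. The genes and lists were chosen with earlier results of these data known. From each list, genes past the threshold were named, otherwise some of the 3 with the smallest p in each comparison. Foxi2, Atp6v1b2 and Jchain were named outside that rule, after their values were seen. One result is not reported here.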

Additional observations from a re-analysis of the deposited data

How the results depend on the processing

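No tested member passed the threshold in any of 462 recomputed values (21 gene and comparison pairs under 22 alternatives), and 439 kept their direction. All values with the other sign were small. For PreIR-GFP against NonIR, Foxi1 was -0.0302 without PreIR-GFP 1 and PreIR-GFP 5, an alternative chosen after seeing the data. For PreIR-NTN against PreIR-GFP, Scnn1g was 0.0184 with limma-voom, 0.0197 from the deposited normalised table and 0.00167 with the replicate block, and Foxi1 was 0.17 without PreIR-GFP 1 and PreIR-GFP 5 and 0.00878 with the short-gene index as a covariate, also chosen after seeing the data. The log2 ratio of Scnn1g to Scnn1a was -0.0284 in that comparison without PreIR-GFP 1 and PreIR-GFP 5. The cause of these was not tested.

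Leaving out 1 library at a time gave, for PreIR-GFP against NonIR, -0.41 to 0.00255 for Cftr and -0.0183 to 0.34 for Foxi1. For PreIR-NTN against PreIR-GFP it gave -0.14 to 0.14 for Scnn1g, -0.29 to 0.072 for Ascl3, -0.11 to 0.10 for Foxi1, -0.0272 to 0.26 for the ratio of Scnn1g to Scnn1a and -0.33 to 0.27 for Ascl3 to Foxi1. For PreIR-NTN against NonIR it gave -0.0459 to 0.31 for Foxi1, -0.18 to 0.0368 for Atp6v1b1 and -0.28 to 0.0726 for the ratio of Scnn1b to Scnn1a.

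Counts of all genes past the threshold moved more. For PreIR-GFP against NonIR they were 5 as reported, 20 with no filter, 73 with DESeq2, 0 with limma-voom (1126 at an unadjusted p under 0.05), 0 with the 2 groups alone (1007), 0 to 17 leaving out 1 library, 1 without PreIR-GFP 1 and PreIR-GFP 5, and 37 with the covariate. For PreIR-NTN against PreIR-GFP they were 3 as reported, 10 with no filter, 38 with DESeq2, 0 with the 2 groups alone (815), 0 to 11 leaving out 1 library, 0 without PreIR-GFP 1 and PreIR-GFP 5 (1104), and 18 with the covariate. For PreIR-NTN against NonIR they were 3 as reported, 31 with DESeq2, 1 with limma-voom, 0 to 4 leaving out 1 library, 5 without PreIR-GFP 1 and PreIR-GFP 5, and 6 with the covariate.

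Replicate numbers did not pair the libraries: the 11 same-numbered pairs correlated at -0.428 to 0.279, 3 of them over 0.1, and 1 of 13 libraries correlated best with its own number. With the replicate block, 0 genes passed in each comparison (1084, 691 and 879 at an unadjusted p under 0.05), and 0 members.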
